A study of Rattus norvegicus with 72 samples.

Results

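Transcripts of Ptpn2, Terf1 and Slc35b2 were followed in the dorsal vagal complex (DVC), a brainstem region that receives visceral input, and in the central amygdala nucleus (CeA), a forebrain region involved in emotion and autonomic output. These 3 of the 145 genes on the panel were chosen by the one-way p values of the same normalized values, which gave each of them a time point effect in each region, as they did for 5 other genes not followed here. Samples came from male Sprague Dawley rats killed 3, 5 or 9 h after lights on (ZT3, ZT5 and ZT9) under a regular light cycle, with 7, 17 and 15 DVC samples and 7, 14 and 12 CeA samples. All groups shared the same alcohol-free, maltose-dextrin Lieber DeCarli liquid diet, and all were calorie-restricted by matching to the intake of alcohol-fed rats, so no group on free feeding or standard chow was measured. The bilateral punches of a region from 1 animal made 1 sample, and no animals were pooled. The 72 samples came from 40 animals, of which 32 gave both regions, 7 the DVC alone and 1 the CeA alone.

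The 3 genes encode proteins of different kinds. Ptpn2 encodes a protein tyrosine phosphatase that removes phosphate from JAK kinases and STAT factors and so limits cytokine signalling; in the brain it is also known to act on leptin and insulin signalling. Terf1 encodes a protein that binds the double-stranded telomere repeat as part of shelterin, the complex that protects chromosome ends and restrains their elongation. Slc35b2 encodes a transporter of the Golgi membrane that carries the sulfate donor PAPS from the cytosol into the Golgi lumen, where sulfotransferases use it on proteoglycans and on tyrosines of secreted proteins. None of them belongs to the core loop of the circadian clock.

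All values come from primer pairs designed to span introns, so the sequences define what each assay read. They are written 5′ to 3′ without capitals because no part of a primer carries the finding. The primers of the 3 pairs were 20 to 24 bases long.
Ptpn2 forward: aggctacaaccgctcagaag
Ptpn2 reverse: catttaggtgtctgtcaatcttgg
Terf1 forward: agtagcttcggaggataaagca
Terf1 reverse: cagactgttggccattaacact
Slc35b2 forward: cctggacctccaactgaaga
Slc35b2 reverse: ggttggttcctctgcaatgt

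Expression was read as the threshold cycle (CT), the PCR cycle at which fluorescence crosses a detection limit. A CT lower by 1 cycle stands for about 2-fold more template, so CT is a log2 scale on which lower means more. The levels below are the authors' quantile-normalized CT values. A change over time is given as −ΔΔCT, the mean of a region at ZT5 minus the value, which is positive where expression lay above ZT5. A region difference is given as DVC minus CeA on the same log2 scale of expression, positive where the DVC was higher. The CT of one assay cannot be set against that of another. In micropunched tissue, fewer cells of a type and less RNA per cell cannot be told apart.

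Before normalization the median CT of a sample lay between 17.9 and 21.8, apart from the 2 CeA samples named next. Those had medians of 22.05 and 20.10. In 2 CeA samples, CeA ZT5 replicate 1 and CeA ZT9 replicate 10, more than 70 reactions were missing (78 and 74 genes), whereas the other samples lacked at most 9. Ptpn2 was among the 74 genes missing in both, which left it 39 DVC and 31 CeA values. Terf1 and Slc35b2 were among the other 71, and these 74 and 71 genes are called the assay sets below. Slc35b2 had a value in all 72 samples. Terf1 failed in 3 DVC and 5 CeA samples, which left 36 and 28 values, and 9 genes failed more often. The noradrenaline transporter Slc6a2, a marker of noradrenergic neurons, was measured in 38 of 39 DVC samples and in 1 of 33 CeA samples. Gad1, the enzyme that makes GABA, was measured in 37 DVC and 32 CeA samples. By their numbers in the labels the animals were split into the 16 lowest and the 24 others, called lower-numbered and higher-numbered here, and all ZT3 animals belong to the latter. What the numbers record is not given in the sources used here.

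Over all animals, the mean level of Ptpn2 transcript was highest at ZT3 and lowest at ZT5 in both regions. In the DVC its normalized CT at ZT3 ran from 21.94 to 24.28 with a median of 23.59, at ZT5 from 23.23 to 25.46 with a median of 24.54, and at ZT9 from 22.85 to 24.68 with a median of 24.10. All 7 ZT3 samples lay on the high-expression side of the ZT5 mean, although the ranges overlapped. The means were 23.42 ± 0.80 (SD, n = 7) at ZT3, 24.51 ± 0.57 (SD, n = 17) at ZT5 and 23.93 ± 0.62 (SD, n = 15) at ZT9. Thus −ΔΔCT was 1.09 ± 0.80 at ZT3, a 2.13-fold higher level, and 0.58 ± 0.62 at ZT9, where 11 of 15 samples exceeded the ZT5 mean. The ZT3 value was the highest of the 145 genes in the DVC, for which the median change was 0.02 and the median size of change 0.19.

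The CeA followed the same course. Ptpn2 CT ran there from 23.18 to 24.24 (median 23.63) at ZT3, from 23.66 to 25.17 (median 24.65) at ZT5 and from 22.05 to 24.82 (median 24.20) at ZT9. The ZT9 group was the most spread of the 3 and held the sample with the highest Ptpn2 expression of the region. The mean −ΔΔCT was 0.96 ± 0.34 (SD, n = 7) at ZT3, with 7 of 7 samples above the ZT5 mean, and 0.71 ± 0.85 (SD, n = 11) at ZT9, with 9 of 11 above. These changes ranked 3 and 4 among the 144 genes measured in the CeA. Over all animals, Ptpn2 at ZT9 lay below ZT3 by 0.52 in the DVC and by 0.25 in the CeA on the log2 scale, less than the SD of either ZT9 group.

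**Figure D1:**
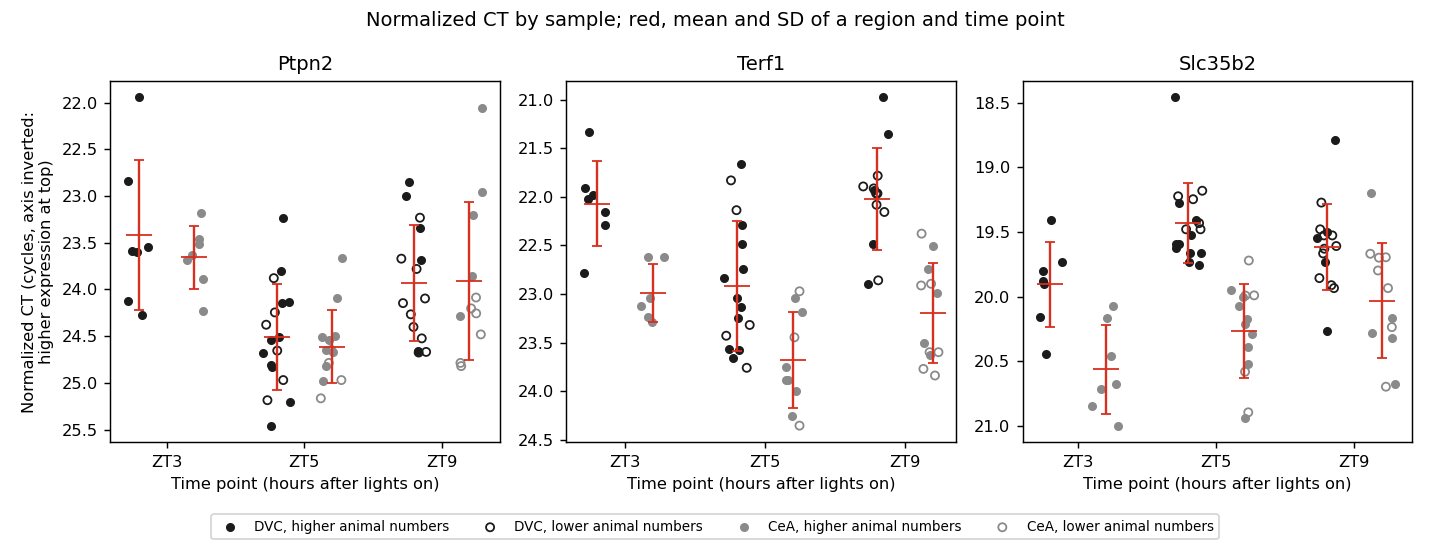
Normalized CT of each sample (cycles, axis inverted so that higher expression is at the top) at ZT3, ZT5 and ZT9 for Ptpn2, Terf1 and Slc35b2. Black points are DVC and grey points CeA samples, filled for higher and open for lower animal numbers, and red marks give the mean and SD. Ptpn2 and Terf1 lie lowest at ZT5 in both regions, with the 2 regions interleaved for Ptpn2 and shifted but overlapping for Terf1, whereas Slc35b2 in the DVC has its highest mean at ZT5.

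Before normalization the change of Ptpn2 at ZT3 was larger in both regions, and in the DVC the ZT3 and ZT5 samples did not overlap. The raw CT of Ptpn2 in the DVC ran from 21.83 to 23.03 at ZT3 and from 23.93 to 26.21 at ZT5, so that every ZT3 sample had more product than every ZT5 sample. Ptpn2 was the 1 gene of 145 (0.69%) with that property in the DVC, and after normalization it was no longer so. Among CeA samples at ZT3, 3 of 143 genes (2.1%) had that property on raw CT. Ptpn2 was not among them, with a highest CT of 24.09 at ZT3 and a lowest of 23.97 at ZT5. Raw CT also carries a shift common to the panel, since the median gene at ZT3 lay above ZT5 by 0.73 among DVC samples and by 0.61 among CeA samples. Relative to that median, Ptpn2 stood 1.58 higher in the DVC and 1.05 higher in the CeA at ZT3, against 1.07 and 0.93 after quantile normalization.

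Within animals of one number group the direction of the Ptpn2 change from ZT5 was the same, with a smaller change at lower numbers. Against ZT5 samples of the same group, Ptpn2 at ZT9 was 0.98 ± 0.72 higher in 5 higher-numbered DVC samples and 0.41 ± 0.47 higher in 10 lower-numbered ones. In the CeA the corresponding values were 1.22 ± 0.86 (n = 5) and 0.45 ± 0.31 (n = 6). Every one of these CeA samples exceeded the ZT5 mean of its group, as did 4 of 5 and 8 of 10 DVC samples. Against higher-numbered ZT5 animals, Ptpn2 at ZT3 was 1.07 higher in the DVC and 0.83 higher in the CeA. Among higher-numbered animals the mean CeA level was thus higher at ZT9 than at ZT3, the reverse of the order over all animals. In the DVC of these animals ZT3 and ZT9 were close, at 1.07 and 0.98. Whether the ZT9 change differs between the number groups was not tested.

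Terf1 also lay higher at ZT3 and ZT9 than at ZT5, in the DVC by about equal amounts. Its DVC CT ran from 21.34 to 22.78 (median 22.03) at ZT3, from 21.66 to 23.76 (median 23.09) at ZT5 and from 20.98 to 22.89 (median 21.97) at ZT9. The mean −ΔΔCT was 0.85 ± 0.43 (SD, n = 7) at ZT3 and 0.90 ± 0.53 (SD, n = 13) at ZT9, each 1 of the 5 highest among 145 genes. Every ZT3 and ZT9 sample lay above the ZT5 mean, 7 of 7 and 13 of 13. The ranges still overlapped, because several ZT5 samples were as high as those of the other times. Raw CT gave 1.83 and 1.54, or 1.10 and 1.05 relative to the median gene.

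In the CeA, Terf1 CT ran from 22.62 to 23.29 (median 23.08) at ZT3, from 22.97 to 24.35 (median 23.82) at ZT5 and from 22.38 to 23.84 (median 23.24) at ZT9. The mean −ΔΔCT was 0.69 ± 0.30 (SD, n = 6) at ZT3, above the ZT5 mean in 6 of 6 samples, and 0.48 ± 0.51 (SD, n = 12) at ZT9, above it in 10 of 12. The ZT5 mean of the CeA rested on 10 values, since 4 of the 5 CeA samples without a Terf1 value were ZT5 samples.

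The higher level of Terf1 at ZT9 held in both number groups in the DVC and less evenly in the CeA. DVC samples at ZT9 were 1.0 ± 0.79 (n = 5) above ZT5 at higher numbers and 0.82 ± 0.34 (n = 8) above it at lower numbers, with all 13 above the ZT5 mean of their group. In the CeA the values were 0.64 ± 0.48 (n = 5) and 0.31 ± 0.56 (n = 7), with 5 of 5 and 3 of 7 samples above, and the lower group had only 3 ZT5 values to compare with. ZT3 samples were 0.86 higher in the DVC and 0.73 higher in the CeA than higher-numbered ZT5 samples.

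Slc35b2 ran the other way in the DVC, where its mean level was highest at ZT5. Its CT ran from 19.41 to 20.45 (median 19.88) at ZT3, from 18.46 to 19.76 (median 19.48) at ZT5 and from 18.79 to 20.27 (median 19.61) at ZT9. The mean −ΔΔCT was −0.47 ± 0.33 (SD, n = 7) at ZT3, and 5 of the 7 samples were below every ZT5 sample. At ZT9 it was −0.19 ± 0.33 (SD, n = 15), within the SD, with 2 of 15 samples above the ZT5 mean. In the CeA, Slc35b2 CT ran from 20.07 to 21.00 (median 20.68) at ZT3, from 19.72 to 20.94 (median 20.19) at ZT5 and from 19.20 to 20.70 (median 20.05) at ZT9. The mean −ΔΔCT was −0.30 ± 0.35 (SD, n = 7) at ZT3 and 0.24 ± 0.45 (SD, n = 12) at ZT9, so the CeA level ended above its start by 0.53, against 0.29 in the DVC.

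These small changes of Slc35b2 depended on the scale. Without normalization the DVC values became 0.17 at ZT3 and 0.27 at ZT9 and the CeA value at ZT3 became 0.57, all of opposite sign. Relative to the median gene of the raw data Slc35b2 lay at −0.56 and −0.21 in the DVC and at −0.05 in the CeA at ZT3. By number group, Slc35b2 at ZT9 in the DVC was −0.09 ± 0.53 (n = 5) at higher numbers and −0.30 ± 0.21 (n = 10) at lower numbers, where 9 of 10 samples were under all 6 ZT5 samples. In the CeA the same comparison gave 0.15 ± 0.55 (n = 5) and 0.27 ± 0.38 (n = 7). At ZT3 the values against higher-numbered ZT5 animals were −0.42 in the DVC and −0.28 in the CeA.

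**Figure D2:**
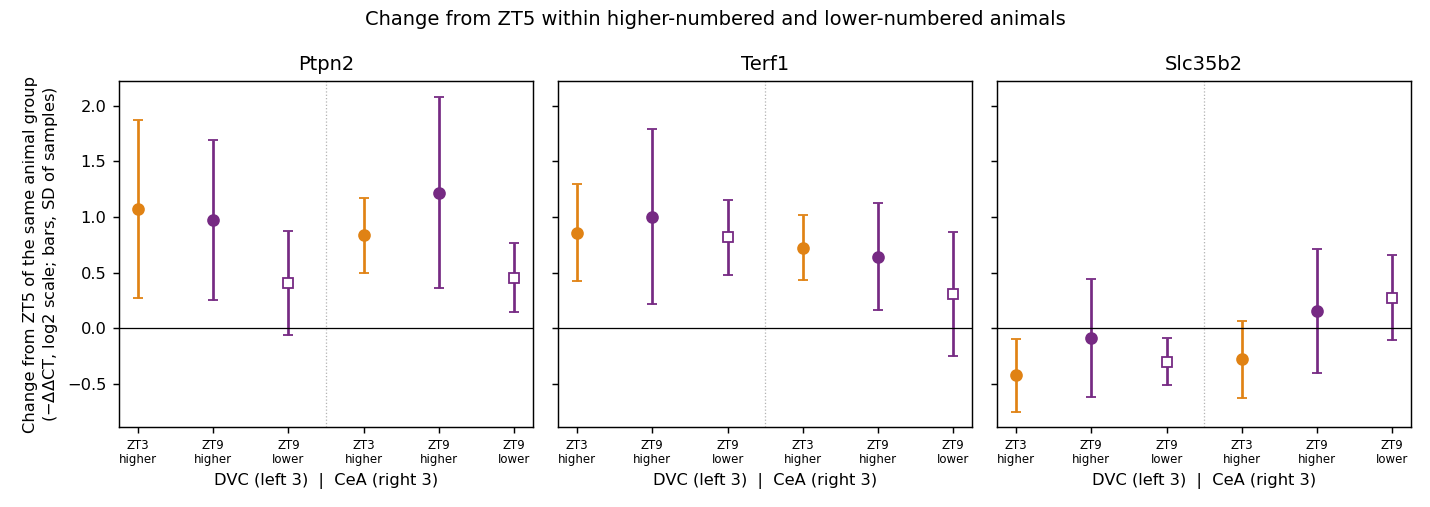
Change from ZT5 (−ΔΔCT, log2 scale) of Ptpn2, Terf1 and Slc35b2, computed within higher-numbered (filled circles) and lower-numbered animals (open squares), with ZT3 in orange and ZT9 in purple. Bars are the SD of the samples at ZT3 or ZT9. Ptpn2 and Terf1 lie above 0 in all 6 comparisons, from 0.31 to 1.22, and Slc35b2 lies below 0 in the DVC and on either side of it in the CeA.

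Because the time point effects chose the genes, none of these changes was tested again. The one-way p values behind the choice were 0.0012 in the DVC and 0.00255 in the CeA for Ptpn2, 0.000346 and 0.0174 for Terf1, and 0.00836 and 0.0264 for Slc35b2. At a limit of 0.05 the same rule took 21.4% of genes in DVC samples, 14.6% in CeA samples and 5.56%, or 8 of 144 genes, in both. Just inside the limit was Adrbk1, a kinase of G-protein-coupled receptors, at 0.0462 and 0.00326. Just outside was Ren1 at 0.0618 and 0.0125.

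The comparison of the regions played no part in the choice of the genes. Terf1 and Slc35b2 were higher in the DVC than in the CeA, while no difference was detected for Ptpn2. Averaged over the time points, the limma fit put Terf1 0.95 higher in the DVC (95% interval 0.67 to 1.23, adjusted p = 1.99e-08), a 1.93-fold difference. Slc35b2 was 0.63 higher (0.45 to 0.82, adjusted p = 6.63e-09), or 1.55-fold. Ptpn2 differed by 0.11 with an interval from −0.20 to 0.41 (adjusted p = 0.552), an interval that includes values of either sign. In the same fit 100 genes (70.4% of those tested) differed between the regions, 59 of them (41.5% of those tested) with the higher level in the DVC, so 2 calls of 3 is near the share of the whole panel. By size of difference Terf1 ranked 39 and Slc35b2 67 from the largest and Ptpn2 19 from the smallest, around a median size of 0.59.

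On the authors' normalized scale, Terf1 was higher in the DVC at each time point. The difference was 0.92 at ZT3 (0.33 to 1.51, adjusted p = 0.00885), 0.76 at ZT5 (0.33 to 1.19, adjusted p = 0.00175) and 1.18 at ZT9 (0.75 to 1.60, adjusted p = 3.25e-06). At ZT5 this call was lost when the animal entered as a block over animals with both regions (0.51, adjusted p = 0.0775), when samples were centred on their median CT (0.35, adjusted p = 0.212) or within assay sets (0.13, adjusted p = 0.589), and among lower-numbered animals (0.70, adjusted p = 0.196). At ZT3 it was lost under both centrings, at 0.63 (adjusted p = 0.122) and 0.51 (adjusted p = 0.141), and at ZT9 under neither. Ordered from high to low, the Terf1 groups ran DVC ZT9, DVC ZT3, DVC ZT5, CeA ZT3, CeA ZT9 and CeA ZT5. Only DVC ZT3 and DVC ZT5 among these neighbours were further apart, at 0.85, than the larger of their SDs, 0.67. The lowest DVC group was thus next to the highest CeA group, 0.07 apart.

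For Slc35b2 the gap between the regions was 0.66 at ZT3 (0.27 to 1.05, adjusted p = 0.00448), 0.83 at ZT5 (0.57 to 1.10, adjusted p = 1.31e-07) and 0.41 at ZT9 (0.13 to 0.70, adjusted p = 0.0108). The ZT9 difference no longer passed within either number group, at 0.56 for higher numbers (adjusted p = 0.0755) and 0.32 for lower numbers (adjusted p = 0.114), nor with samples centred within assay sets (0.16, adjusted p = 0.255), where ZT3 was lost too (0.30, adjusted p = 0.136). All 3 DVC groups ranked above all 3 CeA groups, in the order DVC ZT5, DVC ZT9, DVC ZT3, CeA ZT9, CeA ZT5 and CeA ZT3, with no neighbours further apart than the larger SD. Over the panel 45.8% of genes tested were called for ZT3, 59.2% for ZT5 and 58.5% for ZT9, and those with the higher level in the DVC were 27.5%, 36.6% and 33.8% of genes tested.

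For Ptpn2 the region difference was 0.24 at ZT3 (−0.41 to 0.88, adjusted p = 0.557), 0.11 at ZT5 (−0.34 to 0.55, adjusted p = 0.715) and −0.03 at ZT9 (−0.51 to 0.45, adjusted p = 0.933). Its groups were ordered by time before region, as DVC ZT3, CeA ZT3, CeA ZT9, DVC ZT9, DVC ZT5 and CeA ZT5, and no neighbours differed beyond the larger SD. The sign of its mean difference depended on the scaling. Centring each sample on its median CT gave −0.42 (adjusted p = 0.0408), a higher level in the CeA, and raw CT gave 0.59 (adjusted p = 0.0112), a higher level in the DVC, where the median gene was itself 1.10 higher in the DVC. No direction is therefore given for Ptpn2. Across the same scalings Terf1 stayed higher in the DVC by 0.45 to 1.68 and Slc35b2 by 0.35 to 1.62, each with an adjusted p below 0.05.

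**Figure D3:**
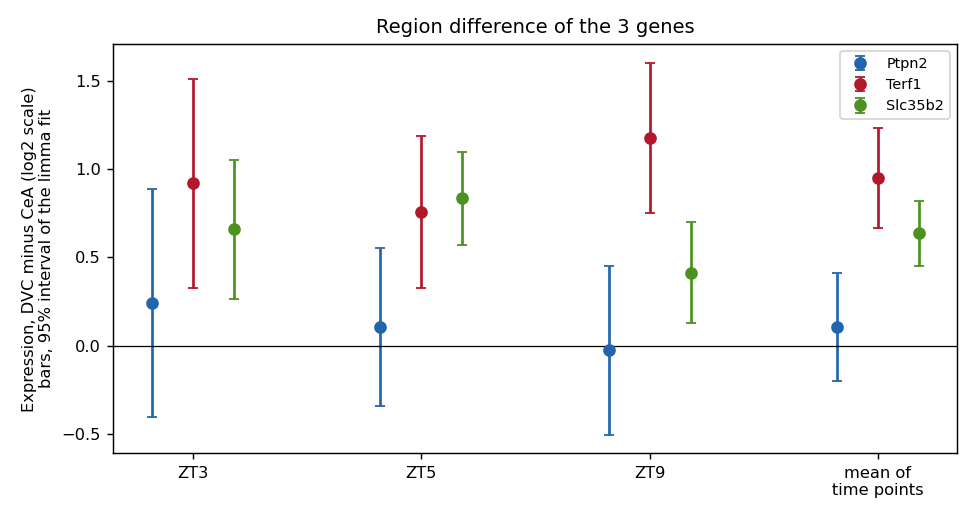
Difference in expression between the regions (DVC minus CeA, log2 scale) of Ptpn2, Terf1 and Slc35b2 at ZT3, ZT5, ZT9 and on average over the time points. Points are estimates and bars the 95% intervals of the limma fit over all 72 samples. The intervals of Terf1 and Slc35b2 lie above 0 at each time point and those of Ptpn2 include 0.

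Animals with both regions gave the same picture. Terf1 was higher in the DVC in 22 of 26 animals, by 0.90 ± 0.78 (SD; permutation of signs, two-sided, p = 1e-05, the smallest the draws can give). It was higher in 6 of 6 animals at ZT3, in 6 of 9 at ZT5 and in 10 of 11 at ZT9. Slc35b2 was higher in the DVC in 29 of 32 animals, by 0.64 ± 0.53 (SD; permutation p = 1e-05), and the 3 exceptions were all ZT9 animals. For Ptpn2 the DVC was higher in 18 of 30 animals, by 0.08 ± 0.68 (SD; permutation p = 0.525).

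Markers of cell types were also compared between the regions. Of the 2 inhibitory markers neither was called, with Gad1 at −0.19 (adjusted p = 0.14) and Slc32a1, the vesicular GABA transporter, at −0.23 (adjusted p = 0.106). Grin1, an NMDA receptor subunit and general neuronal marker, was 1.62 lower in the DVC. Clu, abundant in astrocytes, was lower in the DVC by 0.48 (adjusted p = 0.00354), and of the microglial markers Ptgs1 was lower by 0.48 (adjusted p = 0.00203) while Plcg2 stood at 0.27 (adjusted p = 0.0859). On raw CT, where 92.1% of the genes called over the panel were higher in the DVC, Clu and 1 of the 2 microglial markers were so too. Centred within assay sets, both inhibitory markers were higher in the CeA. Over time, Clu in the DVC lay 0.96 above ZT5 at ZT3 and 0.78 above it at ZT9, the same direction as Ptpn2 and Terf1. In the CeA Clu lay at −0.14 and −0.27. The other markers named here did not share a direction in the DVC. Gad1 lay at 0.38 and 0.09 and Plcg2 at 0.27 and 0.20, above ZT5 at both times. Slc32a1 lay at 0.29 and −0.56 and Ptgs1 at −0.35 and 0.24. Grin1 lay at −0.0038 and −0.11 and Slc6a2 at −0.19 and −0.20. The part of cell composition in the changes of the 3 genes was not tested.

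Once time point means were removed, no correlation between the 2 regions of an animal was detected for any of the 3 genes. For Ptpn2, Pearson's r was 0.32 over 30 animals (permutation p = 0.0971) and Spearman's rho was 0.29 (p = 0.137). Without the 2 animals whose DVC deviation lay farthest from the median, r was 0.21. The CeA deviation played no part in which animals were left out. Adjusted over all genes tested the permutation p was 0.418. Terf1 gave an r of −0.20 over 26 animals (permutation p = 0.352, adjusted p = 0.826) and a rho of −0.15 (p = 0.491), and r was −0.03 without the 2 farthest animals. Slc35b2 gave an r of 0.03 over 32 animals (permutation p = 0.882, adjusted p = 0.978) and a rho of −0.05 (p = 0.779), with r again 0.03 without the 2 farthest. Across the panel 0% of genes passed after adjustment and 14.1% had an unadjusted permutation p under 0.05.

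With the time points left in, the r of Ptpn2 between the regions was 0.59. On raw CT within time points it was 0.65 (adjusted p = 0.0107), a scale on which shifts common to the genes of a sample remain. Among 20 higher-numbered animals it was 0.11 (adjusted p = 0.965) and among 10 lower-numbered animals 0.68 (adjusted p = 0.679), and with number group means also removed it was 0.17 (adjusted p = 0.96), an alternative chosen after seeing the data.

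**Figure D4:**
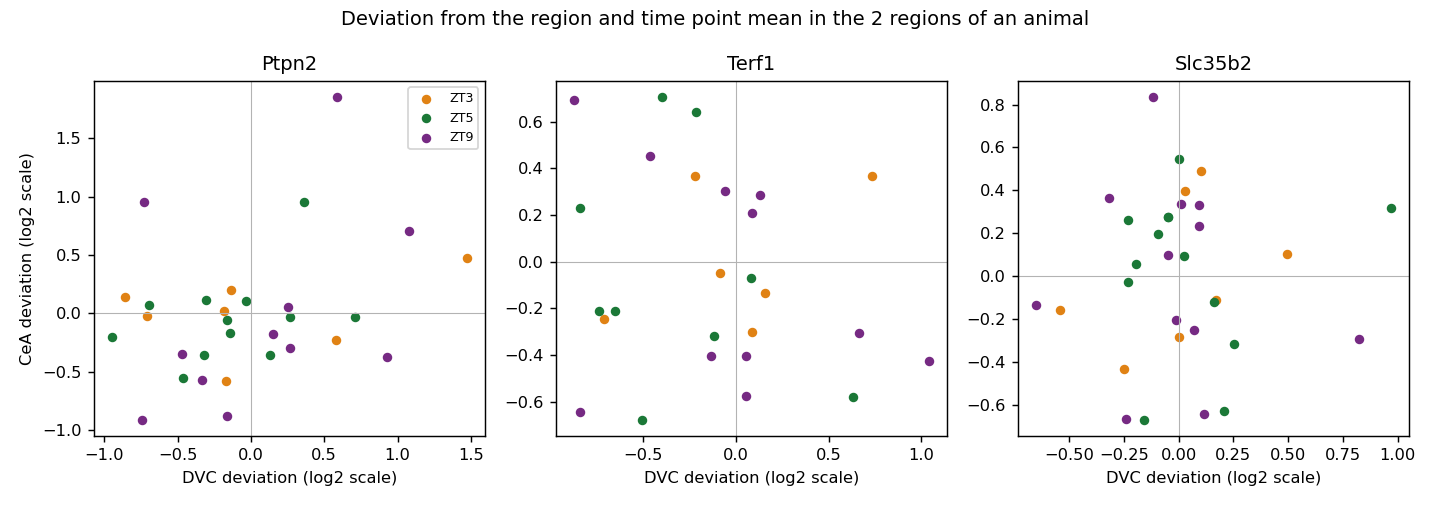
Deviation of each animal from the mean of its region and time point (log2 scale of expression), DVC on the horizontal and CeA on the vertical axis, for Ptpn2, Terf1 and Slc35b2. Each point is an animal with both regions, coloured by time point. The r was 0.32 for Ptpn2, −0.20 for Terf1 and 0.03 for Slc35b2, none of which passed the permutation test.

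Among the 3 genes, 1 of 6 pairings showed a correlation within time points on the normalized scale. In the DVC the deviations of Terf1 and Slc35b2 had an r of 0.55 over 36 samples (permutation p = 0.00063) and a rho of 0.38 (p = 0.0268). The p adjusted over all 10440 gene pairs of the DVC was 0.00765, where 18.2% of pairs passed and 7.85% had an r larger in size. Without the 2 samples farthest from the median of Terf1 the r was 0.48. The high end was set by DVC ZT5 replicate 17, with a CT of 21.66 for Terf1 and 18.46 for Slc35b2, and by DVC ZT9 replicate 12, with 20.98 and 18.79. These 2 samples had the lowest CT of their time point in the DVC for both genes. Without the first the r was 0.44 (adjusted p = 0.0459), without the second 0.48 (adjusted p = 0.0379), and without both 0.32 (permutation p = 0.0542, adjusted p = 0.217).

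The relation of Terf1 and Slc35b2 in the DVC was present in higher-numbered animals, with an r of 0.72 (adjusted p = 0.00864). It was not detected in lower-numbered ones, with an r of −0.017 (adjusted p = 0.992), a contrast that was not tested. DVC ZT5 replicate 17 and DVC ZT9 replicate 12 both came from higher-numbered animals, and the r of that group without them was not computed. Over all DVC samples the r was 0.15 (adjusted p = 0.658) when each sample was centred within the assay sets. In the CeA the same pair gave an r of 0.02 over 28 samples (permutation p = 0.944, adjusted p = 0.984) and a rho of 0.05 (p = 0.823), on a background of 3.1% of 10011 pairs.

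On the normalized scale no correlation of Ptpn2 with either gene was detected. With Terf1 the r was 0.13 in the DVC (n = 36, permutation p = 0.455, adjusted p = 0.629) and −0.07 in the CeA (n = 26, permutation p = 0.769, adjusted p = 0.916). Thus for these 2 genes, which both lay higher at ZT3 and ZT9 than at ZT5, no shared deviation was detected on this scale. Ptpn2 and Terf1 belong to different assay sets. With samples centred within assay sets the r of Ptpn2 and Terf1 in the DVC was 0.61 (adjusted p = 0.0163). On raw CT, where shifts common to the genes of a sample remain, it was 0.49 in the DVC (adjusted p = 0.00654). The raw value of this pair in the CeA was 0.71 (adjusted p = 0.000477). With Slc35b2 the r of Ptpn2 was −0.10 in the DVC (n = 39, permutation p = 0.57, adjusted p = 0.721) and 0.07 in the CeA (n = 31, permutation p = 0.732, adjusted p = 0.901). Raw CT gave 0.45 in the DVC (adjusted p = 0.00566) and 0.56 in the CeA (adjusted p = 0.000662).

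**Figure D5:**
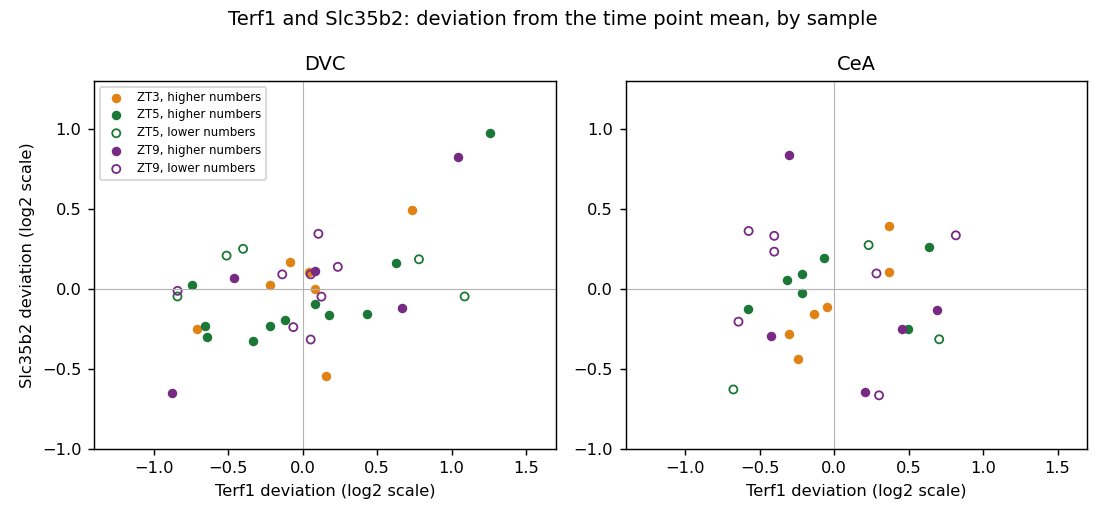
Deviation of Slc35b2 against that of Terf1 from the mean of their region and time point (log2 scale of expression), each point a sample, in the DVC (left) and the CeA (right). Colours give the time point, filled points higher and open points lower animal numbers. In the DVC (r of 0.55) 2 samples stand at the upper right, and without these the r is 0.32. The r of the CeA is 0.02.

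Over all samples, after the ZT5 mean of each region was subtracted, the closest courses to Ptpn2 among 138 genes were those of Mapk3, the kinase ERK1, with an r of 0.71 over 70 samples, Pik3r3, a regulatory subunit of PI3-kinase (0.65, 67 samples), and Plcb1, a phospholipase C (0.62, 69 samples). Mapk3 at ZT3 lay above ZT5 by 0.61 in DVC samples and by 0.42 in CeA samples. Terf1 was most like the nuclear receptor Nr4a2 (0.62, 63 samples). Nr4a2 at ZT3 and ZT9 lay above ZT5 by 0.87 and 0.78 in DVC samples and by 1.13 and 1.16 in CeA samples. Slc35b2 was most like Dmap1, a partner of the DNA methyltransferase Dnmt1 (0.51, 72 samples), then Rab27a, a GTPase of secretory vesicles (0.48, 72 samples), and Mgll, the lipase that degrades 2-AG (0.38, 72 samples). The r of Dmap1 with Slc35b2 was 0.72 among DVC samples and 0.24 among CeA samples. Dmap1 lay below ZT5 by 0.49 at both times in the DVC and by 0.46 and 0.37 in the CeA. There Slc35b2 at ZT9 lay above ZT5, by 0.24. Dmap1, Rab27a and Mgll had a value in all 72 samples and so belong to the same assay set as Slc35b2. The likeness was not recomputed with samples centred within assay sets, and the part of the assay set in it was not tested. These values share samples and normalization and are a description without a test.

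The nearest relative of Ptpn2 on the panel, the phosphatase Ptpn1, also acts on insulin and leptin signalling. Ptpn1 was 0.74 lower in the DVC than in the CeA (adjusted p = 6.14e-10), a direction that turned to 0.32 higher on raw CT, still under the median gene at 1.10. Its changes from ZT5 were 0.09 and −0.11 in DVC samples and 0.28 and 0.35 in CeA samples, with one-way p values of 0.507 and 0.0723. Its courses and those of Ptpn2 were not tested against each other. Of 8 phosphatase genes on the panel, the DVC had the higher level for 4 and the CeA for 2, against 3 and 3 with median centring and 6 and 0 on raw CT. Over the panel, on the normalized scale, 41.5% of genes tested were higher in the DVC and 70.4% were called in either direction. The 4 were Ptpre, Ppp1cb, Ppp1cc and Ppp5c, and Dusp6 joined Ptpn1 as higher in the CeA, by 0.72. One-way p values passed for 3 of the 8 in the DVC, where 21.4% of the panel passed, and for Ptpn2 alone in the CeA, where 14.6% passed. Beside Ptpn2 the DVC genes were Ppp2r1a, the scaffold of PP2A, which lay 0.74 and 0.65 above ZT5 at ZT3 and ZT9, and Ppp1cc, a catalytic subunit of PP1, at −0.12 and −0.55.

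Of 7 genes listed for DNA and chromatin maintenance, 0 were higher in CeA samples and 4 in DVC samples. The 4 were Terf1, the methyl-DNA binding protein Mbd1 (0.80, adjusted p = 5.34e-09), Dmap1 (0.65, adjusted p = 1.13e-05) and Dnmt2 (0.54, adjusted p = 4.01e-05). Dnmt2 was in the list although it is a tRNA methyltransferase. The panel share higher in the DVC was 41.5%. Median centring left 4 higher in the DVC, centring within assay sets left 2 and put 1, Dnmt3a, higher in the CeA, and on raw CT all 7 were higher in the DVC. Over time Mbd1 lay below ZT5 at both times and in both regions, opposite to Terf1. It did so by 0.80 and 0.64 in the DVC and by 0.91 and 0.61 in the CeA. One-way p values passed for 2 of the 7 in the DVC, where 21.4% of the panel passed. In the CeA they passed for 5, where 14.6% of the panel passed. Terf1 is in both counts because these p values chose it.

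Slc35b2 belongs to both remaining groups. All 5 genes listed for the secretory pathway and vesicle traffic were higher in the DVC, against 41.5% of the panel. Slc35b2 was the smallest at 0.63, against 1.91 for the sorting nexin Snx10, 1.57 for the disulfide isomerase relative Txndc1 and 1.02 for Rab27a. All 5 stayed higher in the DVC under each scaling tried. The scalings included raw CT, where 92.1% of the genes called over the panel were higher in the DVC. Of 4 solute carriers tested 2 were higher in the DVC on the normalized scale, Slc35b2 and the betaine and GABA transporter Slc6a12, by 1.76 (adjusted p = 0.000101). Slc6a12 was measured in 13 of 33 CeA samples.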

How the data were processed

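RNA from micropunched DVC and CeA of calorie-restricted male rats was reverse transcribed, pre-amplified and measured by microfluidic qRT-PCR over 40 cycles; either of 2 extraction kits was used, and which sample had which is not given in the sources used here. The authors deposited CT values from the instrument software, with failed reactions missing, and the same values after quantile normalization, both on the log2 scale of cycles. Quantile normalization of all 72 samples together gave the deposited normalized values to within 4.99e-09 cycles. DVC columns of the raw values are named for a nucleus of the DVC, and their animal numbers tied them to samples. A deposited table of the authors' own time point means and differences was not used.

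The 3 genes, the gene lists and the tests were chosen with earlier results of these data known. Region differences came from limma 3.58.1 in R 4.3.3, with a mean for each region and time point, over genes with at least 2 values per group and Benjamini-Hochberg adjustment; called means an adjusted p at most 0.05. Correlations used deviations from time point means, with 100000 two-sided permutations within time points and adjustment over all genes or all pairs of a region. Equal replicate numbers in the 2 regions at a time point mark the same animal per the labels, and the consensus correlation of its regions was 0.0675. Besides the 3 genes, those named were the 3 most correlated with each among genes with at least 60 values, Ptpn1, the genes next to the limit of the rule, markers, and called genes of the lists; some genes that this rule names are not reported here. Both steps were tested on simulated data. Alternatives were other scalings, number groups, sets of samples and blocks. The number of samples limits the precision. The main limma fit had no animal block and took the 2 regions of an animal as independent samples. Its p-values and intervals thus measure the spread between samples of a region and time point. The permutation of signs measures the spread of the within-animal region difference.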

Additional observations from a re-analysis of the deposited data

How the results depend on the processing

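Of 373 values recomputed under other settings, 305 kept their direction and their side of the threshold, or moved within the replicate spread. Among the 305 are values that a setting could not move. CeA ZT5 replicate 1 and CeA ZT9 replicate 10 held no Ptpn2 value, so leaving them out did not move its estimates. All ZT3 animals are higher-numbered, so keeping only that group did not move the ZT3 region differences. The time point changes of Ptpn2 and Terf1 kept their direction in all settings run, whereas the sign of the Ptpn2 region difference, the sign of several uncalled correlations and the size of changes on raw CT did not hold. The cause was not tested for any of them, apart from counts over fewer genes or samples. With samples centred on their median CT the region difference was −0.42 (adjusted p = 0.0408) for Ptpn2 on average, −0.11 at ZT3 and −0.70 at ZT5, and for Terf1 it was 0.63 at ZT3 (adjusted p = 0.122) and 0.35 at ZT5 (adjusted p = 0.212). Centring within the 2 assay sets gave −0.18 on average and −0.49 at ZT5 for Ptpn2, 0.51 at ZT3 and 0.13 at ZT5 for Terf1, and 0.30 at ZT3 and 0.16 at ZT9 for Slc35b2, none of them called. Raw CT gave 0.59 on average and 0.83 at ZT9 for Ptpn2, both called.

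Within lower-numbered animals the region difference was 0.29 at ZT9 for Ptpn2, 0.70 at ZT5 for Terf1 and 0.32 at ZT9 for Slc35b2, and within higher-numbered ones it was 0.56 at ZT9 for Slc35b2, all uncalled. The number group as a covariate put Ptpn2 at ZT9 at 0.038. With the animal as a replicate block over animals with both regions, which pairs equal replicate numbers of the 2 regions at a time point, Ptpn2 at ZT9 was 0.050 and Terf1 at ZT5 was 0.51 (adjusted p = 0.0775), and no other call of the 3 genes changed. Genes called for region numbered 35 on average, 23 at ZT3, 30 at ZT5 and 31 at ZT9 among 48 genes measured in all samples. They numbered 52 at ZT5 among lower-numbered animals, against 84 in all animals, and 55 at ZT9 among higher-numbered ones, against 83.

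Changes from ZT5 on raw CT were 2.31 and 1.38 in the DVC and 1.66 in the CeA at ZT3 for Ptpn2, 1.83 and 1.54 in the DVC and 1.67 in the CeA at ZT3 for Terf1, and 0.17 and 0.27 in the DVC and 0.57 in the CeA at ZT3 for Slc35b2. Centring within assay sets put Terf1 in the DVC at ZT3 at 1.31. Replicate numbers at different time points mark different animals, and the replicate number as a block gave 1.40 for Ptpn2 and 1.08 for Terf1 in the CeA at ZT3.

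Between the regions, Ptpn2 had an r of 0.65 on raw CT (adjusted p = 0.0107) and of 0.59 with time point means kept (adjusted p = 0.0426). Terf1 turned positive at 0.11 with median centring, 0.24 with assay set centring, 0.15 on raw CT and 0.29 with time point means kept. Slc35b2 turned to −0.0051 with assay set centring and to −0.19 at lower numbers.

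In the DVC the r of Ptpn2 and Terf1 was 0.61 with assay set centring (adjusted p = 0.0163), 0.49 on raw CT (adjusted p = 0.00654) and −0.019 at higher numbers. That of Ptpn2 and Slc35b2 was 0.42 with assay set centring, 0.45 on raw CT (adjusted p = 0.00566) and 0.53 at lower numbers. That of Terf1 and Slc35b2 was 0.15 with assay set centring, −0.017 at lower numbers, 0.16 with time point means kept and 0.32 without DVC ZT5 replicate 17 and DVC ZT9 replicate 12, an alternative chosen after seeing the data. Left out singly, these samples gave 0.44 and 0.48.

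In the CeA the r of Ptpn2 and Terf1 was 0.47 with median centring, 0.52 with assay set centring and 0.71 on raw CT (adjusted p = 0.000477). It was 0.59 at lower numbers, 0.24 with time point means kept and 0.15 without the 2 samples farthest from the median of Ptpn2. The r of Ptpn2 and Slc35b2 was 0.56 on raw CT (adjusted p = 0.000662) and −0.26 without the 2 samples farthest from the median of Ptpn2. That of Terf1 and Slc35b2 was −0.0055 with each region normalized on its own and 0.82 on raw CT (adjusted p = 0.000169). It was −0.028 with time point means kept and −0.0061 without the 2 samples farthest from the median of Terf1.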
